A study of Mus musculus with 31 samples.

Results

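The ependymal and motile cilia genes are 35 genes named by symbol, chosen for their known place in the motile cilium or in the ependymal cell. The rule uses no measured value, but the list was drawn up with earlier results of these data known. Of the 35, 34 were found among the 55291 gene symbols of the deposited transcript tables, and no gene of the symbol Pltp2 was matched. After a filter on low counts 33 of the 34 were tested with the other genes that passed, 14481 in all. Mcidas, which encodes a factor that starts multiciliation, had 0 or 1 count in every library and was not tested.

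Ependymal cells line the brain ventricles and carry tufts of motile cilia that move cerebrospinal fluid. A motile cilium is built on an axoneme, in which dynein arms slide the outer microtubule doublets while radial spokes and a central pair of microtubules set the beat. The transcription factor FOXJ1, together with factors of the RFX family, switches on most of the genes of this machine, so its parts tend to be transcribed together in the cells that carry such cilia. The ependymal layer faces the fluid into which the agents of this study were injected.

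RNA-seq was analysed for 12 libraries of sorted mouse astrocytes, 3 in each of 4 groups. Per the labels the mice were female C57Bl/6 animals aged 10 weeks, with no allele or transgene named, and every group had been injected into the lateral ventricles. The titles of all 12 libraries also carry the mark SPF. The libraries labelled cytokine come from mice given IL-1β at 100 ng/mL with TNF-α at 50 ng/mL, and those labelled PBS from mice given the saline vehicle. Groups labelled 1X had their only injection on day 7, groups labelled 2X had an earlier injection and a second one on day 7, and cells were sorted 18 to 24 h after the last. The short description field of the cytokine samples names TNF alone. The markers used for sorting were not in the sources used here, and no label ties a library to 1 animal. The p-values therefore speak only to spread among these libraries, part of which may be technical.

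Library totals lay between 1878418 and 5521679 estimated counts, at which 3 counts correspond to between 0.543 and 1.60 CPM. CPM values are counts scaled by TMM library totals, and TPM values are scaled by transcript length as well, so that only TPM compares one gene with another. The astrocyte water channel gene Aqp4 averaged 282 TPM over the 12 libraries, the astrocyte filament gene Gfap 288 TPM, and Ttr, the defining gene of the choroid plexus epithelium that also borders the ventricles, 21151 TPM. Transcripts known from cells other than astrocytes were present in every library, and Foxj1 had between 152 and 680.0 counts in each. In such bulk libraries fewer cells of a type and less RNA per cell cannot be told apart.

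Some libraries stood apart from the others of their label. Lcn2, which encodes an acute-phase protein and is known to be induced by inflammatory cytokines, measured 5.33, 1076 and 776 CPM under the 1X PBS label, 797, 11.5 and 3.85 under 1X cytokine, 570.0, 363 and 426 under 2X PBS and 14.99, 2.26 and 1.20 under 2X cytokine. In the 1X groups replicate 1 of each label lay with replicates 2 and 3 of the other label. By the known induction of Lcn2, only the replicate 1 libraries of the 1X groups were in the order of their labels. Among replicates 2 and 3 of the 1X groups, and in the 2X groups, the libraries labelled PBS were the high ones. The summed CPM of 10 astrocyte marker genes was 7739 and 7424 in 1X PBS replicates 2 and 3 and 10640 in 1X cytokine replicate 1, against 19884 to 28764 in the other 9 libraries. Whether labels were exchanged cannot be told from the files used here. An exchange of whole group labels would turn the sign of the difference between those groups, the 2X groups included. An exchange of single libraries, such as the replicate 1 libraries of the 1X groups, would change the size of a difference and need not turn its sign. All directions below are those of the labels, and results that rest on the 1X groups are given with and without both replicate 1 libraries. The replicate 1 libraries were set apart by their Lcn2 and astrocyte marker values in these data. The 1X libraries kept without them are those whose Lcn2 ran against their labels. Fits without them are therefore descriptions of the libraries kept.

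Per length, the highest of the 34 genes was Rarres2, which encodes the secreted chemoattractant chemerin, with a mean of 493 TPM and a range over the 12 libraries of 355 to 621. Tmem212, a membrane protein gene of ependymal cells, followed at 239 TPM, then Ccdc153 at 212, Dynlrb2 at 203 and Mia at 198. The ranges of these last 4 genes overlapped one another, so their order is not resolved beyond the spread over libraries. Rsph1 at 143 TPM, Rsph9 at 114, Cfap126 at 81.6, Foxj1 at 60.4 and Tekt1 at 53.7 completed the 10 highest. At the other end lay the genes of the very long dynein heavy chains, with Dnah12 at 3.04 TPM and Dnah5 at 2.33 TPM, and the adenylate kinase gene Ak9 at 2.28 TPM.

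**Figure D1:**
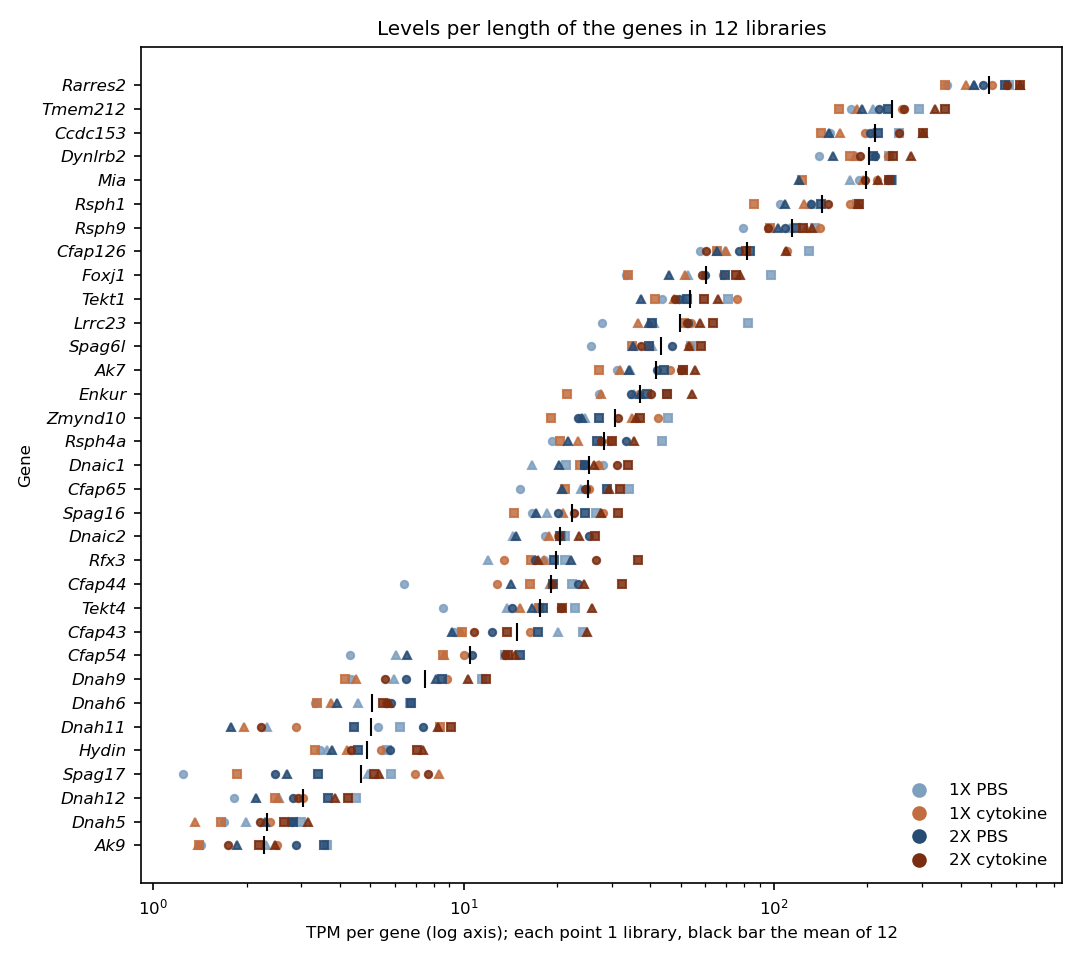
Level per length (TPM, log axis) of the 33 tested ependymal and motile cilia genes, ordered by their mean; each point is 1 library, coloured by group and shaped by replicate (circle 1, square 2, triangle 3), and the black bar is the mean of 12 libraries. The means run from 493 TPM for Rarres2 to 2.28 TPM for Ak9, and the colours of the 4 groups are mixed for most genes.

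The transcription factors come first. Foxj1 (chr11:116330704-116335399, minus strand, GRCm38), the master regulator of motile ciliogenesis, measured 60.1, 186 and 119 CPM under the 1X PBS label, 123, 58.4 and 93.4 under 1X cytokine, 104, 119.7 and 81.1 under 2X PBS and 102, 127 and 131 under 2X cytokine. The highest library was 1X PBS replicate 2, the lowest were 1X cytokine replicate 2 and 1X PBS replicate 1, and all 4 groups overlapped. Among the 33 genes Foxj1 had the widest ratio of highest to lowest library, 3.19-fold. Rfx3 (chr19:27761721-28011166, minus strand), which encodes an RFX factor also used by cells with primary cilia, ranged only 1.46-fold, from 48.2 to 70.3 CPM, and both ends of that range were 1X cytokine libraries. Its lowest 3 libraries were 1X cytokine replicate 1, 1X PBS replicate 3 and 2X PBS replicate 1, and its order over the 12 libraries ran against that of the other members (Spearman rho -0.53).

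Because RFX factors bind the X-box, its letters were counted in the promoter windows of RefSeq (GRCm38.p6), which hold 250 bases before to 50 bases after a gene's start. Windows were matched for 28 of the 34 genes. The X-box was searched by its consensus, an inverted repeat with a free middle, its shorter core as GTTGCC, which can lie inside an X-box, and the core of forkhead sites, the class of site bound by FOXJ1, as TGTTTAC, all on both strands. GTTGCC was in the windows of 15 of the 28 genes (53.6%), against 14.1% of the 27025 genes with a window. The X-box letters in that spacing were in 1 of the 28, Ak9, against 0.529% of all genes, and the shorter core of Ak9 lies inside that match. The search used 1 fixed spacing and let no fixed letter differ. Repeats with another spacing or with a changed letter were not counted, so this share is that of the strict form alone. In the Ccdc153 and Dynlrb2 stretches below, the shorter core is followed closely by its inverted repeat with 1 letter changed. In Dynlrb2 the spacing differs as well. Looser forms of the X-box were not searched in these or in other genes. TGTTTAC was in 2 of the 28, Ak7 and Cfap43, against 4.05% of all genes. Of the 19 matches of GTTGCC 15 lay before the start, 9 of them within 100 bases of it. A window has 250 of its 300 bases before the start, and positions were not compared with those in other genes. These matches are descriptions of letters and not binding sites. The stretches below show Ak9, which holds the X-box letters, and the 3 genes of highest TPM with the shorter core, 5′ to 3′ on the strand of the gene, with the matched letters in capitals.
Ak9: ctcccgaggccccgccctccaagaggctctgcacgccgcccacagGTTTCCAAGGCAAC
Ccdc153: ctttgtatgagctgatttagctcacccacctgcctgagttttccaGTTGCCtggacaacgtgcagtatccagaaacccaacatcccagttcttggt
Dynlrb2: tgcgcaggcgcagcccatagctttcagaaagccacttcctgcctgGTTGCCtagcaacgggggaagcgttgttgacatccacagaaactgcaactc
Tekt1: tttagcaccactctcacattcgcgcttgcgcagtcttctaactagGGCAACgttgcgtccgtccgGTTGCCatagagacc
The Ak9 stretch is chr10:41303878-41303936 on the plus strand, and its match begins 11 bases before the start. The Ccdc153 stretch is chr9:44240480-44240575 on the plus strand, with the match 152 bases before the start. The Dynlrb2 stretch is chr8:116504919-116505014 on the plus strand, with the match 51 bases before the RefSeq start. That start lies inside the gene span given below for Dynlrb2. The Tekt1 stretch is chr11:72361883-72361962 on the minus strand, with a match on the opposite strand 35 bases and one on the gene's strand 15 bases before the RefSeq start, which lies inside the gene span given below for Tekt1.

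The 9 genes of the dynein arms and their assembly covered the whole range of levels. Dynlrb2 (chr8:116504974-116515915, plus strand), a light chain gene, measured 31.2, 55.7 and 52.9 CPM under the 1X PBS label, 52.8, 37.2 and 40.1 under 1X cytokine, 44.9, 46.5 and 34.4 under 2X PBS and 40.7, 50.5 and 57.9 under 2X cytokine. Its highest library was 2X cytokine replicate 3 and its lowest 1X PBS replicate 1, and no pair of groups was separate. Its near relative Dynlrb1, a light chain of cytoplasmic dynein in most cells, lay between 98.9 and 163 CPM, so reads shared by the pair could shift the Dynlrb2 estimates. Zmynd10 (chr9:107547298-107551319, plus strand), which encodes a factor that assembles dynein arms in the cytoplasm, measured 27.4, 55.4 and 35.7 CPM under the 1X PBS label, 45.7, 19.2 and 37.4 under 1X cytokine, 25.8, 30.3 and 27.2 under 2X PBS and 32.1, 40.0 and 38.7 under 2X cytokine. The 2X cytokine libraries all lay above the 2X PBS libraries, whereas the 1X groups overlapped over a wide span.

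The outer arm intermediate chain genes were flatter than every other tested member except Rfx3. Dnaic1 spanned 23.8 to 38.8 CPM and Dnaic2 28.1 to 46.4 CPM, ratios of 1.63 and 1.65 between highest and lowest library. The outer arm heavy chain genes Dnah5, Dnah9 and Dnah11 spanned ratios of 2.31, 2.92 and 2.91, and the inner arm heavy chain genes Dnah6 and Dnah12 ratios of 2.22 and 2.58. Dnah11 is the least certain of them, because 40.0% of its counts were assigned to protein-coding transcripts and 55.4% to 1 transcript annotated as a target of nonsense-mediated decay.

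Of the 4 radial spoke genes, Rsph1 (chr17:31255019-31277383, minus strand), a spoke head gene, measured 74.9, 141 and 117 CPM under the 1X PBS label, 126, 59.1 and 89.5 under 1X cytokine, 87.6, 98.2 and 77.0 under 2X PBS and 101, 126 and 124 under 2X cytokine. Every 2X cytokine library was above every 2X PBS library, and the 1X groups overlapped. Rsph9 (chr17:46122035-46144216, minus strand), another spoke head gene, measured 41.8, 77.9 and 74.2 CPM under the 1X PBS label, 77.2, 47.2 and 68.1 under 1X cytokine, 56.3, 61.2 and 54.8 under 2X PBS and 50.3, 62.6 and 65.4 under 2X cytokine. Here the highest libraries were 1X PBS replicate 2 and 1X cytokine replicate 1, and the 2X groups overlapped. Rsph4a, of the same spoke head, spanned 49.8 to 118 CPM, with both ends in the 1X PBS group, and Lrrc23, which encodes a protein of the spoke, 17.9 to 42.7 CPM with the same 2 libraries at the ends.

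The 5 central pair genes, Spag6l, Spag16, Spag17, Hydin and Cfap54, encode proteins of the central microtubule apparatus. Spag6l was the highest per length at 43.2 TPM and Spag17 the lowest at 4.65 TPM, with Hydin at 4.89 TPM. The level of these 5 genes, the geometric mean of CPM + 0.5, ran from 24.9 in 1X PBS replicate 1 to 50.5 in 1X PBS replicate 2. The lowest library was 1X PBS replicate 1 for Spag6l, Spag17, Hydin and Cfap54, and 1X cytokine replicate 2 for Spag16. The paralog Spag6 had 2 counts in all 12 libraries together, so little was divided between the pair.

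Among the 10 other axonemal and basal body genes, Ccdc153 (chr9:44240676-44247306, plus strand), a coiled-coil protein gene used as an ependymal marker, measured 67.7, 116 and 110.2 CPM under the 1X PBS label, 87.5, 62.2 and 70.9 under 1X cytokine, 85.5, 89.8 and 66.3 under 2X PBS and 111, 119.5 and 121 under 2X cytokine. The 2X cytokine libraries were all above those of 2X PBS and of 1X cytokine. Cfap126 (chr1:171113918-171126967, plus strand), which encodes the basal body protein Flattop, measured 28.5, 62.6 and 44.3 CPM under the 1X PBS label, 52.1, 28.4 and 33.0 under 1X cytokine, 27.9, 42.1 and 29.0 under 2X PBS and 31.8, 40.3 and 49.2 under 2X cytokine. Tekt1 (chr11:72344722-72362442, minus strand), a gene of the tektin filaments inside the doublet microtubules, measured 38.0, 65.7 and 56.6 CPM under the 1X PBS label, 66.6, 34.6 and 41.8 under 1X cytokine, 41.5, 44.4 and 32.0 under 2X PBS and 40.3, 48.6 and 54.0 under 2X cytokine. Neither Cfap126 nor Tekt1 separated any pair of groups, and 1X PBS replicate 2 and 1X cytokine replicate 1 were their highest libraries. Only 68.0% of the Cfap126 counts were assigned to protein-coding transcripts. Enkur (chr2:21180731-21205365, minus strand), which encodes a protein inside the doublet microtubules, measured 19.8, 33.2 and 29.9 CPM under the 1X PBS label, 26.1, 14.98 and 18.1 under 1X cytokine, 21.6, 26.9 and 26.4 under 2X PBS and 25.7, 30.5 and 36.9 under 2X cytokine. Its lowest libraries were 1X cytokine replicates 2 and 3 and its highest was 2X cytokine replicate 3, with all groups overlapping.

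The adenylate kinase genes Ak7 and Ak9 averaged 41.6 and 2.28 TPM, and Ak9 had 13 to 98 counts in a library. Cfap43, Cfap44 and Cfap65, genes of axonemal proteins, averaged 14.9, 19.1 and 25.1 TPM, with 78.4%, 66.5% and 73.5% of their counts in protein-coding transcripts. Tekt4 averaged 17.6 TPM on 22 to 95 counts. For 26 of the 33 tested genes at least 90% of counts fell in protein-coding transcripts.

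The membrane and secreted protein genes, Rarres2, Tmem212 and Mia, were all among the 5 highest per length. Rarres2 (chr6:48569696-48572789, minus strand) measured 135, 226 and 208 CPM under the 1X PBS label, 188, 128 and 150.5 under 1X cytokine, 169.7, 204 and 167 under 2X PBS and 198, 217 and 219 under 2X cytokine. The 2X cytokine libraries lay above all 1X cytokine libraries and overlapped 2X PBS. Tmem212 (chr3:27866066-27896368, minus strand) measured 63.5, 112 and 95.8 CPM under the 1X PBS label, 94.1, 55.7 and 66.5 under 1X cytokine, 74.9, 83.1 and 68.7 under 2X PBS and 90.3, 119.5 and 111 under 2X cytokine, with the 2X cytokine libraries above all 3 of 2X PBS. Mia (chr7:27179742-27181157, minus strand), which encodes a small secreted protein, measured 48.3, 66.2 and 58.2 CPM under the 1X PBS label, 56.3, 30.0 and 50.5 under 1X cytokine, 56.7, 60.7 and 30.5 under 2X PBS and 48.2, 55.8 and 52.5 under 2X cytokine. For Mia 1 library of 1X cytokine and 1 of 2X PBS were the low ones, and the other 10 lay between 48.2 and 66.2 CPM.

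The genes moved as a block from library to library. Their level, the geometric mean of CPM + 0.5 over the 33 tested genes, was 31.1, 60.0 and 48.0 under 1X PBS, 48.0, 30.4 and 37.8 in 1X cytokine, 42.4, 46.6 and 34.8 in 2X PBS and 41.6, 50.8 and 51.6 in 2X cytokine. The highest and lowest libraries of the series, 1.97-fold apart, were 1X PBS replicate 2 and 1X cytokine replicate 2, and 1X PBS replicate 1 was next to the lowest. Thus the 1X PBS group alone spanned nearly the whole range, and the largest gap between the group means of 46.3 ± 14.5, 38.7 ± 8.82, 41.3 ± 6.00 and 48.0 ± 5.54 (SD, n = 3, in the same order) was smaller than the SD of 1X PBS. 1X PBS replicate 2 was the highest library for 22 of the 33 genes. 1X cytokine replicate 2 was the lowest for 17 and 1X PBS replicate 1 for 11.

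**Figure D2:**
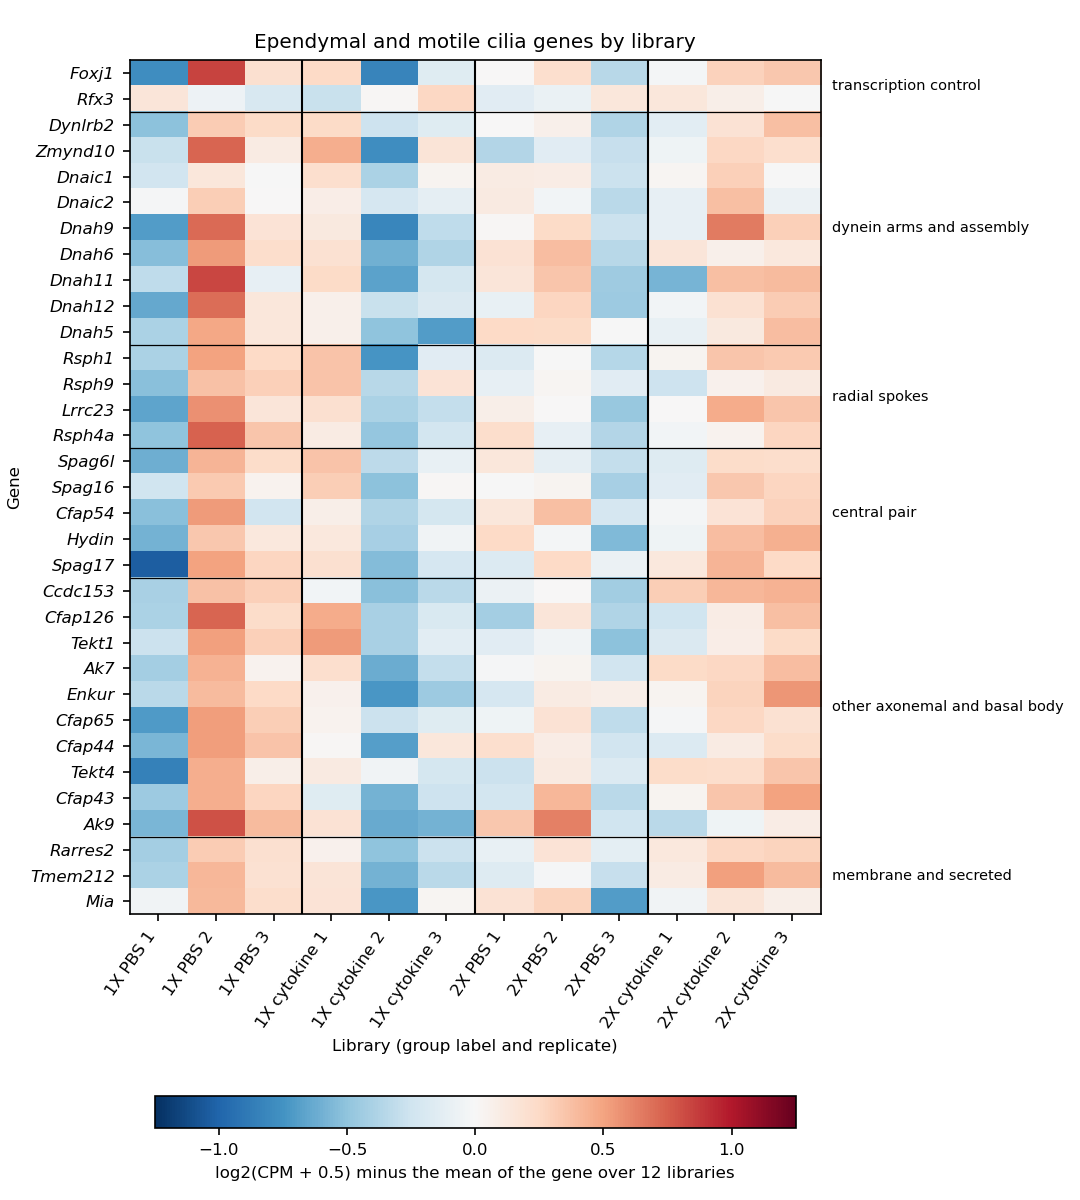
log2(CPM + 0.5) of each tested gene minus its own mean over 12 libraries (colour), with genes grouped by role in rows and libraries by group in columns. The columns 1X PBS 1 and 1X cytokine 2 are low and 1X PBS 2 is high across nearly all roles, with Rfx3 the exception.

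How closely the members kept their ratios was measured by dividing each gene by the level of the other members. The SD over the 12 libraries was smaller for 31 of the 33 genes after this, and its median went from 0.359 to 0.179 on the log2 scale, where counting alone would give a median of 0.132. For 24 of the 33 the SD of the ratio was under 1.5 times the counting SD of that gene. Dynlrb2, Rarres2, Ak7 and Cfap65 kept the steadiest ratios, with SDs of 0.114, 0.108, 0.123 and 0.124. The SD grew for Rfx3, from 0.162 to 0.423, and for Dnaic2, from 0.201 to 0.226, the genes with the smallest SD before dividing. Foxj1 differed from both. Its order over libraries was the closest of all to that of the other members (Spearman rho 0.979) but its swing was wider, with an SD of 0.475 before and 0.187 after dividing. The median rho of a member with the other members was 0.881 over 12 libraries. These libraries differ in depth and in marker sums of other cell types, so these values are descriptions.

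**Figure D3:**
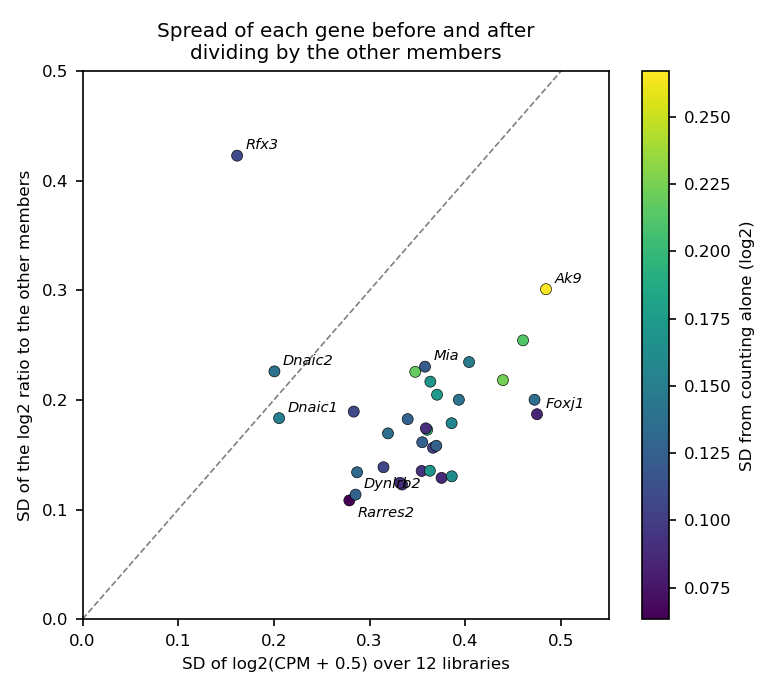
SD of each gene over 12 libraries before (x axis) and after (y axis) dividing by the level of the other tested members, both in log2 units, with the SD expected from counting alone as colour and the dashed line at equality. Rfx3 and Dnaic2 lie above the line, Dnaic1 just below it, and the other genes lie further below.

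Markers of other cell types differed between the same libraries. In the 1X groups the 3 libraries with the lowest astrocyte marker sums, 1X PBS replicates 2 and 3 and 1X cytokine replicate 1, had the highest levels of the ependymal and motile cilia genes, 60.0, 48.0 and 48.0, against 30.4 to 37.8 in the other 3. The summed CPM of the 12 choroid plexus markers, with Ttr and Enpp2 as the largest, was 36036, 37062 and 40636 in those 3 libraries and 12627, 17720 and 30494 in 1X PBS replicate 1 and 1X cytokine replicates 2 and 3. The summed CPM of 8 neutrophil and monocyte markers ranged from 38.4 to 2057 in 1X PBS and from 36.8 to 602 in 1X cytokine, with the same 3 libraries high. The erythrocyte sum was 6134 to 64888 CPM in 1X PBS and 956 to 7660 in 1X cytokine. The part of these markers in the levels of the cilia genes was not tested.

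In the 2X groups the pattern differed. The choroid plexus sum was 18753 to 21765 CPM in 2X PBS and 5442 to 19890 in 2X cytokine, and all 12 of its markers had a lower mean in 2X cytokine (median log2 fold change -0.66, 0 called by edgeR), while 31 of the 33 cilia genes had a higher one. Within 2X cytokine, Ttr was 3631, 7259 and 13671 CPM in replicates 1, 2 and 3, against a cilia gene level of 41.6, 50.8 and 51.6. The astrocyte sum lay between 19884 and 26434 CPM over all 6 libraries, and the oligodendrocyte sum was 3036 to 4414 in 2X PBS and 5737 to 6901 in 2X cytokine. The 6 reactive astrocyte markers summed to 3711 to 4646 CPM in 2X PBS and 1172 to 1294 in 2X cytokine, all 6 with a lower mean in 2X cytokine (median log2 fold change -4.23), and edgeR called 1 of them, Timp1, which fell by 3.93 on the log2 scale (adjusted p = 0.00543). The 7 erythrocyte markers summed to 514 to 3570 CPM in 2X PBS and 2532 to 13453 in 2X cytokine, all 7 with a higher mean in 2X cytokine (median 1.81, 0 called by edgeR). The neutrophil and monocyte sum was 508 to 535 CPM in 2X PBS and 9.90 to 138 in 2X cytokine. Of 13 other ependymal markers 10 were higher in 2X cytokine, with a median of 0.23. The part of these markers in the result was not tested.

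**Figure D4:**
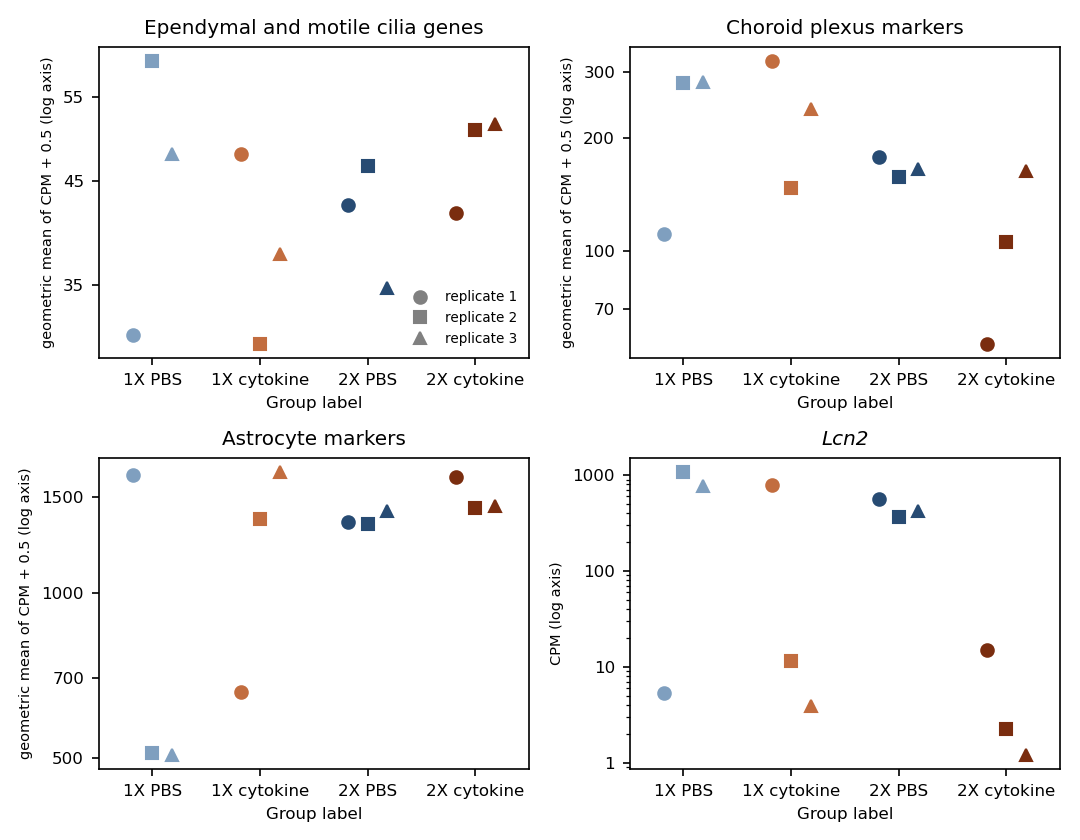
Level of the tested ependymal and motile cilia genes, of choroid plexus markers and of astrocyte markers (geometric mean of CPM + 0.5) and CPM of Lcn2 in each library, on log axes, by group label, with symbol shapes for replicates. Replicate 1 of both 1X groups lies away from both other libraries with its label in the astrocyte and Lcn2 panels, and the cilia gene level of 1X PBS runs from 31.1 to 60.0.

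What 1 cytokine injection changes is the question of 1X cytokine against 1X PBS. For 32 of the 33 genes the mean was lower under the 1X cytokine label, against 51.8% of all genes tested, and the median log2 fold change was -0.26, against -0.01 over all genes. Ccdc153 was 73.5 ± 12.8 CPM with cytokine and 97.8 ± 26.2 with PBS (SD, n = 3), a log2 fold change of -0.41 ± 0.20 (SE), and Enkur 19.7 ± 5.71 and 27.6 ± 7.02 CPM, a log2 fold change of -0.47 ± 0.25 (SE). Both groups overlapped for every one of the 33 genes, at a background of 2.88% of genes separate upward and 3.29% separate downward. By edgeR's quasi-likelihood test with Benjamini-Hochberg adjustment over all genes, none of the 33 was called, at a background of 0% called, and 0 had an unadjusted p under 0.05, at a background of 5.39%. DESeq2 called 0 of the 33, at a background of 0.0138%, limma-trend on log2(TPM + 1) 0, at a background of 0.0319%, and limma-voom with quality weights 5, at a background of 11.8%. The adjusted p by edgeR was 0.867 for both Ccdc153 and Enkur, and no member had a smaller one. The medians by role were -0.30 for other axonemal and basal body genes, -0.30 for dynein arms, -0.26 for radial spokes, -0.32 for membrane and secreted proteins, -0.18 for the transcription factors and -0.11 for the central pair.

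This result rested on single libraries. Leaving out replicate 2 of 1X PBS moved the median to 0.02, and leaving out replicate 2 of 1X cytokine moved it to -0.09. Leaving out replicate 1 of 1X PBS moved it to -0.45 and leaving out replicate 1 of 1X cytokine to -0.48, each with 0 of the 33 called. The median was -0.05 by limma-trend on log2(TPM + 1). With both 1X replicate 1 libraries left out, which left 2 libraries in each 1X group, edgeR called 19 of the 33 lower, at a background of 11.2% of genes called lower, with a median of -0.69. In that fit Ak9 fell by 1.24 on the log2 scale, Dnah9 by 1.01, Foxj1 by 1.00, Enkur by 0.92 and Ccdc153 by 0.74, and called genes were found in every role. The 2 libraries on each side then also differed in astrocyte, choroid plexus and myeloid marker sums, as given above, and the part of these was not tested. In the same fit all 10 astrocyte markers were called higher and all 7 neutrophil and monocyte markers tested were called lower. The libraries left out were chosen by measured values, so the 19 calls describe the libraries kept.

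The 2X groups were compared to ask the same after 2 injections, which does not isolate the second one. For 31 of the 33 genes the mean was higher under the 2X cytokine label, against 49.5% of all genes, and the median log2 fold change was 0.24, against -0.0030 over all genes. For 6 of the 33, Ccdc153, Tmem212, Ak7, Rsph1, Tekt4 and Zmynd10, every 2X cytokine library was above every 2X PBS library, at a background of 11.2% of genes with separate groups in that direction. Ccdc153 was 117 ± 5.24 CPM with cytokine and 80.5 ± 12.5 with PBS (SD, n = 3), a log2 fold change of 0.54 ± 0.20 (SE), and Tmem212 was 107 ± 14.9 and 75.6 ± 7.22 CPM, a log2 fold change of 0.50 ± 0.23 (SE). None of the 33 was called by edgeR over all 12 libraries, at a background of 0.0345% called, and the adjusted p by edgeR was 0.448 for Ccdc153 and 0.516 for Tmem212. DESeq2 called 0 of the 33, at a background of 0.788%, limma-trend 0, at a background of 0.0319%, and limma-voom 1, at a background of 2.91%, while 2 had an unadjusted p under 0.05 by edgeR, at a background of 9.67%. Ak9 had the lowest log2 fold change, -0.40 ± 0.37 (SE).

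In the fit of the 6 libraries of this comparison alone, which does not draw on the spread of the 1X groups, 3 of the 33 were called higher, at a background of 2.44% of genes called higher. Ccdc153 rose by 0.55 on the log2 scale (edgeR adjusted p = 0.0135), Tmem212 by 0.50 (edgeR adjusted p = 0.0254) and Ak7 by 0.38 (edgeR adjusted p = 0.0488). With both 1X replicate 1 libraries left out, 2 were called higher, Ccdc153 and Tmem212, at a background of 1.75%. The fold changes were nearly the same in the 3 fits, and the standard error of Ccdc153 was 0.20 with all 12 libraries and 0.12 with 6. The median over the 33 genes lay between 0.16 without 2X PBS replicate 3 and 0.39 without 2X PBS replicate 2. In the fit of the 6 libraries alone, 7 of 10 oligodendrocyte markers (median 0.80) and 2 of 10 astrocyte markers were also called higher. Called lower in that fit were 5 of 6 reactive astrocyte, 4 of 10 mural and fibroblast, and 4 of 6 neutrophil and monocyte markers. The part of these in the result was not tested.

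Between the cytokine groups, 2X cytokine against 1X cytokine, the mean was higher with 2 injections for 31 of the 33 genes, against 47.7% of all genes, with a median log2 fold change of 0.29, against -0.01 over all genes. Ccdc153 had the largest, 0.67 ± 0.20 (SE), followed by Cfap43 at 0.64 ± 0.27 (SE) and Enkur at 0.63 ± 0.25 (SE). The groups were separate for 5 of the 33, Ccdc153, Cfap43, Ak7, Tekt4 and Rarres2, all higher, at a background of 5.73% in that direction and 6.76% in the other. None was called by edgeR, at a background of 0.0276% called, by DESeq2, at a background of 0.0553%, by limma-trend, at a background of 0.041%, or by limma-voom, at a background of 0%, and the smallest adjusted p by edgeR was 0.690. An unadjusted p under 0.05 by edgeR was reached by 5 of the 33, at a background of 7%. The median was 0.15 without 1X cytokine replicate 2, the library lowest in these genes, and 0.47 without 1X cytokine replicate 1 or without both 1X replicate 1 libraries, where edgeR called 0 of the 33, at a background of 0.0202%. This comparison shares the 2X cytokine libraries with the preceding one and the 1X cytokine libraries with the first.

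Between the vehicle groups, 2X PBS against 1X PBS, the mean was lower with 2 injections for 29 of the 33 genes, against 54.5% of all genes, with a median of -0.17, against -0.03 over all genes. Zmynd10 was 27.8 ± 2.28 CPM after 2 injections and 39.5 ± 14.4 after 1 (SD, n = 3), and Tekt1 39.3 ± 6.48 and 53.4 ± 14.1, log2 fold changes of -0.51 ± 0.30 (SE) and -0.45 ± 0.26 (SE). The groups overlapped for all 33 genes, at a background of 5.41% separate upward and 6.06% separate downward. None was called by edgeR, at a background of 0% called, none had an unadjusted p under 0.05, at a background of 6.33%, and DESeq2 called none at a background of 0.122%. Limma-trend called 0, at a background of 0.00455%, and limma-voom 3, at a background of 18.1%. The median changed sign without 1X PBS replicate 2, to 0.05, and by limma-trend on log2(TPM + 1), to 0.06. Leaving out 1X PBS replicate 1 gave -0.34, leaving out 1X PBS replicate 3 gave -0.09 and leaving out 2X PBS replicate 3 gave -0.03. With both 1X replicate 1 libraries left out, edgeR called 4 of the 33 lower, Tekt1, Ccdc153, Rsph4a and Rsph1, at a background of 8.22%, and the median was -0.32.

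The difference between both cytokine responses, 2X minus 1X, was tested as an interaction. All 33 genes had a positive difference, against 48.9% of all genes, with a median of 0.46 on the log2 scale, against -0.01 over all genes. Ccdc153 had the largest difference, 0.95 ± 0.29 (SE), and Tmem212 followed at 0.82 ± 0.32 (SE). None was called by edgeR, at a background of 0% called, by DESeq2, at a background of 0.0899%, or by limma-trend, at a background of 0.0091%, with adjusted p by edgeR of 0.827 and 0.908 for these, and 3 had an unadjusted p under 0.05 by edgeR, at a background of 5.17%. Limma-voom called 2, at a background of 1.22%. With both 1X replicate 1 libraries left out, 12 of the 33 were called with a positive difference, at a background of 2.93%, and the median was 0.86. These calls too come from libraries chosen by measured values. The median was 0.23 without 1X PBS replicate 2.

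**Figure D5:**
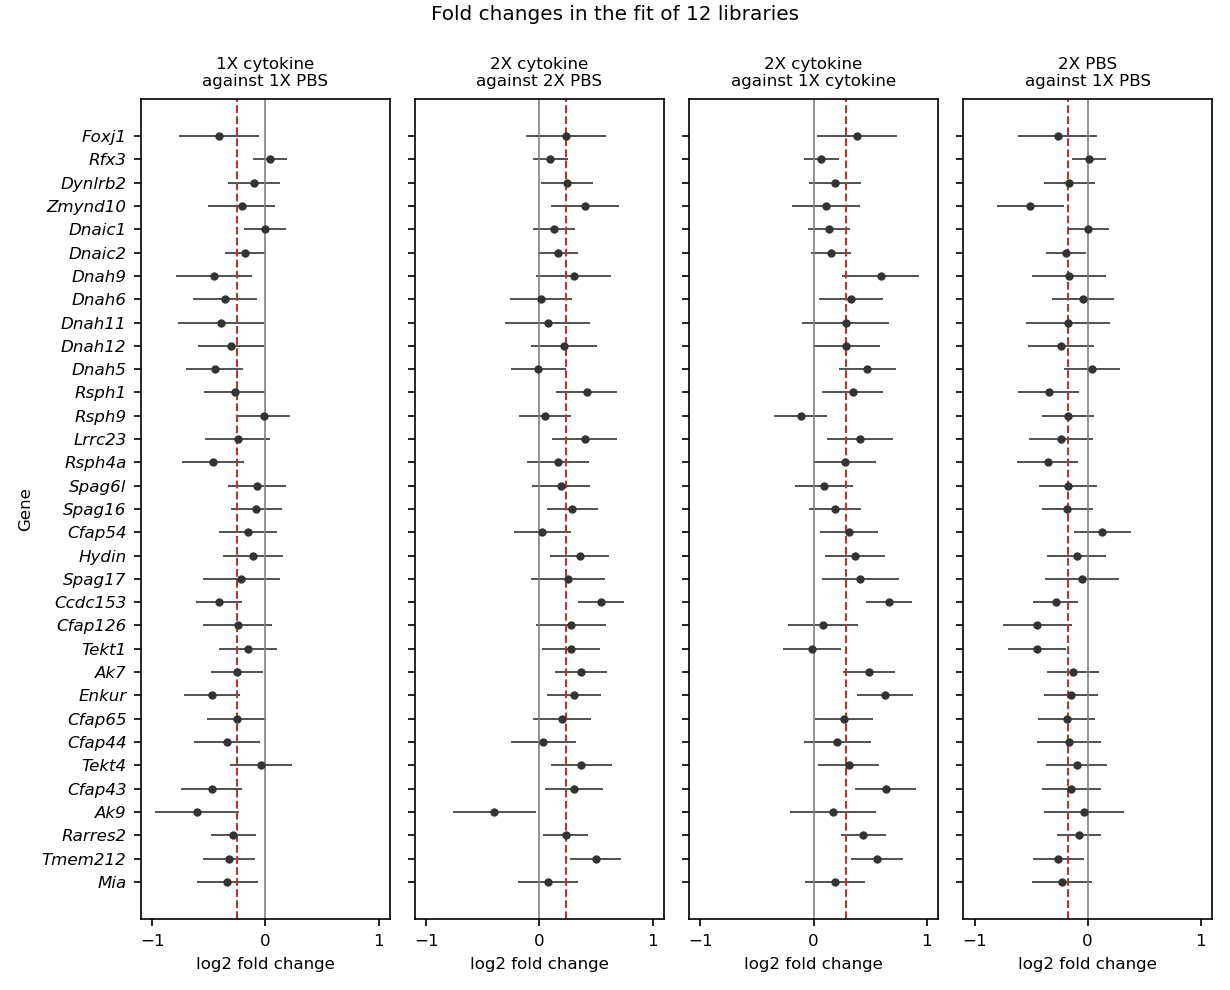
log2 fold change of each tested gene with its standard error in 4 comparisons, from the edgeR fit of 12 libraries, with the solid line at 0 and the dashed line at the median of the 33 genes. The median is -0.26, 0.24, 0.29 and -0.17 from left to right, and none of the genes passed the adjusted threshold in any panel.

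Other genes of the same structures, from lists that share no gene with the 35, were compared in the same way. These lists too were drawn up with earlier results of these data known. Of 23 other dynein arm and assembly genes tested, 18 were lower in 1X cytokine than in 1X PBS (median -0.17) and 19 higher in 2X cytokine than in 2X PBS (median 0.28). Of 38 other spoke, central pair, tektin and linker genes, 33 were lower in the first comparison and 32 higher in the second (medians -0.19 and 0.23). Of 9 other regulators of multiciliation tested, 4 were higher and 5 lower in the first comparison (median -0.16), and 9 higher in the second (median 0.45). None of these genes was called by edgeR in any of the 5 comparisons over 12 libraries. With both 1X replicate 1 libraries left out, at the background of 11.2% given above, 8 of the 23 and 13 of the 38 were called lower in 1X cytokine, as were 9 of 13 other ependymal markers. Of the 9 regulators 1 was called lower and 1 higher. Drc7, a gene of the dynein regulatory complex, ran from 71.0 CPM in 2X cytokine replicate 1 to 177 CPM in 1X cytokine replicate 1. Ccno, a cyclin-like gene needed to amplify centrioles, was 2.54, 2.29 and 1.18 CPM under 2X PBS and 3.21, 5.65 and 5.70 under 2X cytokine.

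The 25 genes of intraflagellar transport and the BBSome, which build and serve primary cilia as well as motile ones, were flatter. Their summed CPM lay between 996 and 1219 in all 12 libraries, while that of the 34 members ran from 1200 to 2364. None of the 25 followed the level of the members with a Spearman rho of at least 0.8 over the 12 libraries, against 22 of the 33 members with the other members. Among the 12640 genes with a mean CPM of at least 5, 164 outside the members (1.30%) reached 0.8. The 10 listed first were Fam183b (rho 0.972), Cfap161 and Maats1 (0.965), 2410004P03Rik and Vwa3a (0.958), Capsl (0.951), 1700003E16Rik and Gm973 (0.944), and AC151602.1 and Cfap221 (0.937). The last of these values was tied: Elof1, Hsp90aa1, Lrrc36, Ppp1r36 and Ttll9 also had 0.937. These correlations describe 12 libraries that differ in depth and in marker sums of other cell types.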

How the data were processed

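RNA was measured in 12 SMART-Seq2 libraries of sorted mouse astrocytes, grouped by their titles. Per the labels' protocols the authors quantified reads with kallisto 0.46.1 on GRCm38 transcripts, and they deposited estimated counts and TPM for each of 142604 transcripts. The sources used here do not state the strand setting. Estimated counts were summed per gene symbol and rounded to whole numbers, and symbols, positions and biotypes follow the identifiers in the tables and GENCODE M21.

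Genes were filtered with filterByExpr, scaled by TMM and tested with edgeR 4.0.16 (R 4.3.3, quasi-likelihood test, 1 coefficient per group, 12 libraries), with p-values adjusted by Benjamini-Hochberg over 14481 genes and a threshold of 0.05. The alternatives were DESeq2 1.42.0 and its size factors, 2 other filters, limma-trend (limma 3.58.1) on log2(TPM + a pseudocount of 1 or 0.1) for genes averaging 0.5 TPM or more, limma's voom with quality weights, protein-coding transcripts alone, a replicate block, fits of only the 6 libraries compared, and fits that leave out libraries.

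Values are given in every library for the 10 genes of highest mean TPM and the 2 genes of smallest unadjusted p in each comparison. The members and all gene lists were chosen with earlier results of these data known. The 19 samples of chromatin accessibility were not analysed here.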

Additional observations from a re-analysis of the deposited data

How the results depend on the processing

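In all 5 comparisons the number of the 33 genes called by edgeR was 0 with DESeq2's size factors, with no filter or a stricter one, and with protein-coding transcripts alone, and DESeq2 and limma-trend also called 0. With each of the 12 libraries left out in turn the number was 0 to 0 in every comparison. The median log2 fold change then ran from -0.48 to 0.02 between the 1X groups, from 0.16 to 0.39 between the 2X groups, from 0.15 to 0.47 between the cytokine groups, from -0.34 to 0.05 between the PBS groups and from 0.23 to 0.67 for the difference between both responses. Voom with quality weights called 5 genes in the first of these comparisons, with a median of -0.61, then 1, 0, 3 and 2. The shares of all genes that it called were 11.8%, 2.91%, 0%, 18.1% and 1.22% in the same order. Its weights were 0.164 for 1X PBS replicate 1 and 0.309 for 1X cytokine replicate 1. The 6 libraries of the 2X groups alone gave 3 calls, all higher, at a background of 2.44% of genes called higher. With both 1X replicate 1 libraries left out, a choice made from measured values, only 2 libraries remained in each 1X group. There were then 19 calls between the 1X groups (lower, median -0.69, background 11.2%) and 2 between the 2X groups (higher, background 1.75%). Between the PBS groups there were 4 (lower, background 8.22%), and for the difference 12 (positive, median 0.86, background 2.93%). With a replicate block the counts were 0 and the medians -0.24, 0.24, 0.27, -0.16 and 0.43. Same-numbered libraries had correlations of their deviations between -0.62 and 0.16, so the numbers were not taken to pair the samples. Depth limits the least abundant members: Ak9 had 13 to 98 counts in a library, Tekt4 22 to 95, and Mcidas could not be tested.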
